A study of Mus musculus with 61 samples.

Results

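The genes described here are the nuclear-encoded subunits of respiratory complexes II, III and IV and of ATP synthase, complex V, in mouse skeletal muscle. They were taken from the deposited gene table by symbol, as the rows named Sdh, Uqcr, Cyc1, Cox4 to Cox8 or Atp5, without Cox7a1, Cox7a2, Cox7a2l and Cox8b. The rule found 42 of the 19462 genes: 4 of complex II, 9 of complex III, 12 of complex IV and 17 of complex V. The rule reads symbols only. All 42 passed the filter on low counts, which left 16682 genes for testing. The rule also takes Atp5s and Atp5sl through their symbols, although neither is a core subunit of ATP synthase. Atp5sl is also named Dmac2, for an assembly factor of a membrane part of complex I.

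RNA was sequenced from 61 libraries of 8 inbred strains, from which the Diversity Outbred mice were bred. Of these, 5 are classical laboratory strains, which the labels call AJ, B6, 129, NZO (8 libraries each) and NOD (7 libraries). The wild-derived ones are Cast and PWK, with 7 libraries each, and WSB, with 8. Every library came from a mouse fed a high-fat, high-sugar diet with 45 percent fat, and the labels name no control diet, transgene or drug. Which muscle was taken, and the age and sex of the mice, are not given in the labels. Libraries are named by strain and by the number in their title, so that B6_5 is the B6 library numbered 5. Nothing in the labels ties each library to its own mouse. The p-values therefore only set strain differences against the spread of libraries within strains, pooled over the 8 strains. Some of that spread may be technical.

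Electrons from succinate enter the respiratory chain at complex II, which is also the succinate dehydrogenase of the citric acid cycle. Complex III passes electrons from ubiquinol to cytochrome c, complex IV passes them from cytochrome c to oxygen, and ATP synthase uses the proton gradient that complexes III and IV help to build. Complex II is encoded wholly in the nucleus, whereas complexes III, IV and V each combine nuclear subunits with subunits of the mitochondrial genome. Several complex IV subunits come in a muscle form and a form found in most other tissues. Skeletal muscle, and slow and oxidative fibres above all, is rich in these complexes.

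Total counts per library ran from 17057111 to 65153255. Expression is given as CPM, the count scaled by the TMM-adjusted size of its library, and differences are on the log2 scale. The 8 markers of muscle fibres summed to 115703 to 225539 CPM in every library. Library B6_5 stood apart: Rn18s-rs5, a ribosomal RNA gene, took 46.3% of its counts. Markers of other cell types also varied between strains. Of 6 brown adipocyte markers, 6 were higher in Cast, 4 in WSB, 2 in PWK and 1 in B6. Of 6 white adipocyte markers, 5 were higher in WSB, 2 in Cast and 1 each in B6 and NZO. All 8 lymphocyte markers were higher in WSB, 7 in B6, 4 in PWK and 3 in Cast. In B6 their sum ran from 0.409 to 91.8 CPM with a median of 0.974, and 2 libraries were high. Of 9 hepatocyte markers, 4 were higher in Cast. Of all tested genes, 33.8% were higher in Cast, 21.4% in WSB, 20.6% in PWK, 15% in B6 and 14.6% in NZO. In bulk tissue, fewer cells of a type and less RNA per cell cannot be told apart.

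All 42 subunit genes differed among the 8 strains, by edgeR's quasi-likelihood test with Benjamini-Hochberg adjustment over all genes. Read against the 85.5% of all tested genes that differed in the same test, that count is not a result about the subunits. Most of them differed by little: the range between the highest and lowest strain had a median of 0.41 over the 42 genes and of 0.91 over all tested genes. The 42 genes and all genes were not matched for expression level, on which this range can depend. The range was under 0.5 for 30 of the 42, and over 1 for 5, namely Cox4i2, Cox6a1, Cox6b2, Cox8a and Atp5g2. On GRCm38, the genes described most closely lie at chr7:128205435-128206387 (Cox6a2), chr5:115345642-115348981 (Cox6a1), chr19:7215158-7217616 (Cox8a), chr1:36691484-36693681 (Cox5b), chr15:102662864-102672352 (Atp5g2) and chr7:25619414-25625551 (Atp5sl). Complex IV had the widest median range, 0.66, against 0.37 for complex II, 0.40 for complex III and 0.40 for complex V. Its 12 genes include the scarce Cox4i2 and Cox6b2, at means of 0.782 and 0.175 CPM, whose wide ranges rest on few counts. They also include Cox5b, whose range of 0.77 was 0.41 with its copy Gm11273 added. The median without these genes was not taken. B6 had the lowest mean of the 8 strains for 26 of the 42 genes, among them all 9 of complex III, and for 17 when library B6_5 was left out. Cast had the highest mean for 19, NOD for 9 and WSB for 9. For 3 genes, Cox5b, Atp5g2 and Atp5sl, the strains fell into 2 sets whose libraries did not overlap. For the other 39, and for any 1 strain against all 7 others, library values overlapped. The share of all tested genes that split in this way was not counted, so 3 of 42 is not a result about the subunits. Cox5b and Atp5g2 each have a close gene copy, described below. The nearest libraries of the 2 Cox5b sets were at 169.98 and 170.26 CPM.

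**Figure D1:**
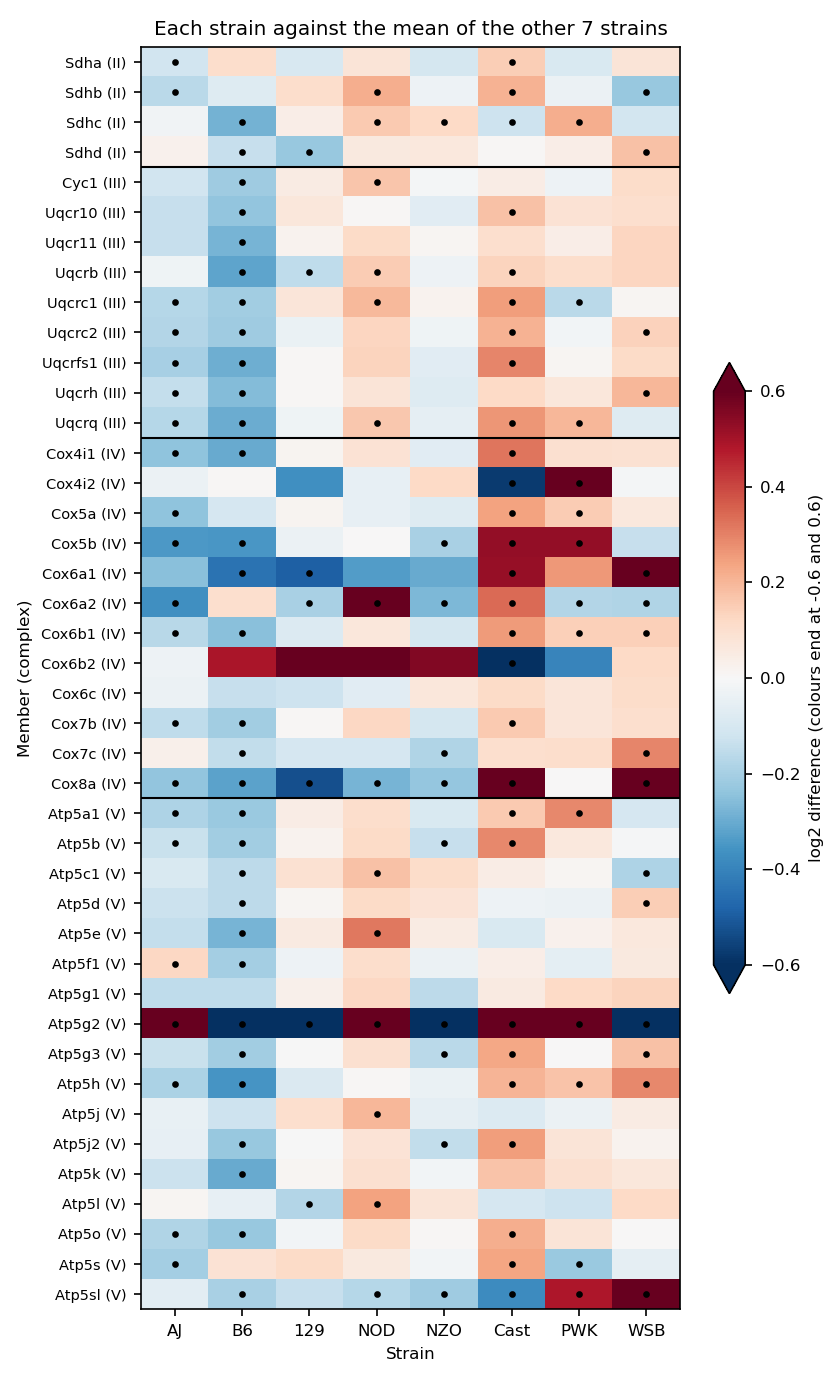
Heat map of the 42 subunit genes, grouped by complex on the vertical axis, against the 8 strains on the horizontal axis. Colour gives the log2 difference of a strain from the equally weighted mean of the other 7, with colours ending at -0.6 and 0.6. The B6 and AJ columns are each below 0 for 37 of the 42 genes. The NOD column is above 0 for 35, and the Cast column for 34.

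Levels between genes were compared per length, as RPKM, the CPM per kilobase of the principal transcript, averaged over the strain means. The catalytic beta subunit of ATP synthase, Atp5b, was the most abundant at 1055 RPKM, followed by the alpha subunit Atp5a1 at 756. Complex IV was led by Cox4i1 at 529 and Cox6c at 487. Within complex III, Uqcrh stood at 317 and Cyc1 at 148. In complex II, Sdha stood at 216, Sdhb at 215, Sdhd at 125 and Sdhc at 69.5 RPKM. A single transcript length stands for each gene, so these levels order the genes only roughly.

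Complex II had the narrowest median range, and its 4 genes did not share an order of strains. Sdha, the flavoprotein that oxidises succinate, had lowest, median and highest library values of 548, 589 and 618 CPM in AJ. In Cast they were 607, 678 and 767 CPM. The highest AJ library reached above the lowest Cast library, and the range between strains was 0.23 (adjusted p = 0.000183). Sdhb carries the iron-sulphur clusters, and its library values were 181, 212 and 238 CPM in WSB. In NOD the lowest, median and highest were 248, 277 and 309 CPM, so that every NOD library lay above every WSB library. The range of Sdhb was 0.39 (adjusted p = 8.5e-06).

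Sdhc and Sdhd anchor the complex in the inner membrane and bind ubiquinone. Sdhc had library values of 155, 186 and 206 CPM in B6, and of 219, 247 and 294 CPM in PWK, with no overlap between them. Its range was 0.44 (adjusted p = 1.28e-07), the widest of the complex. Against the other strains Sdhc was lower in B6, at -0.28 ± 0.05 (log2 ± SE; adjusted p = 7.86e-06), and higher in PWK, NOD and NZO. In Cast it was called lower, at -0.12 (adjusted p = 0.0342), and without library Cast_8 it was -0.08 (adjusted p = 0.188). The Cast call was also lost with DESeq2 size factors, with marker sums as covariates and without the libraries high in Ucp1 or in lymphocyte markers. Sdhd was lowest in 129, at 124, 134 and 143 CPM (lowest, median, highest), and highest in WSB, at 153, 171 and 187 CPM. These 2 strains did not overlap, and the range of means was 0.36 (adjusted p = 7.77e-05). The 2 membrane anchors thus had different highest and lowest strains.

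The 9 complex III genes all had their lowest mean in B6, and the highest lay in Cast for 5, in NOD for 2 and in WSB for 2. Uqcrfs1, the Rieske iron-sulphur protein that takes the first electron from ubiquinol, was the most varied. Its lowest, median and highest library values were 204, 259.8 and 281 CPM in B6 and 288, 384 and 408 CPM in Cast. Every Cast library lay above every B6 library, and the range of means was 0.51 (adjusted p = 1.44e-08). Means elsewhere ran from 270.1 in AJ to 330.1 in NOD, with NZO, 129, PWK and WSB at 293, 306, 307 and 327 CPM. Libraries of neighbouring strains in this order overlapped.

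Uqcrq and Uqcrb are small subunits near the cytochrome b core. Uqcrq had values of 85.0, 129 and 139 CPM in B6 and 138, 181 and 194 CPM in Cast, and a range of 0.49. The top of B6 met the bottom of Cast, and the low end in B6 was library B6_5, apart from the other 7. Uqcrb had 90.2, 138 and 166 CPM in B6 and 167, 187 and 189.8 CPM in NOD, and a range of 0.41. Cyc1, cytochrome c1, which hands the electron to cytochrome c, had the narrowest range of the complex, 0.33 (adjusted p = 0.00224), with means of 198 ± 15.1 (SD, n = 8) in B6 and 249 ± 15.3 CPM (SD, n = 7) in NOD. Uqcrh, the hinge protein beside cytochrome c1, ranged from 147 ± 24.6 in B6 (SD, n = 8) to 195 ± 10.9 CPM in WSB (SD, n = 8). The core proteins Uqcrc1 and Uqcrc2 and the small subunits Uqcr10 and Uqcr11 had ranges of 0.40, 0.37, 0.36 and 0.36.

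The general complex IV subunits surround the catalytic core made in the mitochondrion. They had ranges of 0.22 to 0.54, apart from Cox5b, described with its gene copy below. Cox4i1, the common form of the largest nuclear subunit, was 335 ± 46.7 in B6 (SD, n = 8) and 488 ± 52.8 CPM in Cast (SD, n = 7). Library values were 233, 339.9 and 382 CPM in B6 and 386, 485 and 556 CPM in Cast. Every Cast library lay above every B6 library, and B6_5 was the lowest of all 61 libraries. The range of means was 0.54 (adjusted p = 7.36e-09). Cox6c had the narrowest range of the 42 genes, 0.22 (adjusted p = 0.00861), from 225 ± 35.3 in B6 to 263 ± 32.4 CPM in Cast (SD, n = 8 and 7). Cox7b was nearly as even, with a range of 0.32. Cox5a, Cox6b1 and Cox7c had ranges of 0.42, 0.44 and 0.42, and Cox7c was lowest in NZO at 186 and highest in WSB at 248 CPM.

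The scarce forms of complex IV subunits were near the floor of the assay. Cox4i2, the lung form, had strain means of 0.532 in Cast to 1.31 CPM in PWK. Cox6b2, the testis form, ran from 0.0368 in Cast to 0.260 CPM in 129. Their wide ranges, 1.30 and 2.58, rest on few counts, and the fitted differences of such genes depend on the prior count. Cox7b2, Cox8c and Uqcrhl were not among the rows the rule found.

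The muscle form of subunit VIa, Cox6a2, and its counterpart Cox6a1, the form of liver and most other tissues, differed between strains in unlike ways. Cox6a2 had lowest, median and highest library values of 450.4, 487 and 538 CPM in NOD, 305, 394 and 456 CPM in Cast and 286, 335 and 387 CPM in B6. In AJ they were 241, 248 and 269.9 CPM. NOD thus lay wholly above AJ, while its lower libraries met the upper ones of Cast. Cox6a2 was higher in NOD by 0.74 ± 0.05 (log2 ± SE, 1.67-fold; adjusted p = 8.46e-20) and in Cast by 0.34 ± 0.05. It was lower in AJ, at -0.37 ± 0.05, and in 129, NZO, PWK and WSB by less. The range of 0.97 stayed between 0.96 and 0.98 in all 14 alternative fits.

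Cox6a1 had values of 18.7, 27.2 and 41.5 CPM in WSB. The corresponding values were 12.1, 21.2 and 31.1 CPM in Cast and 12.6, 16.5 and 27.9 CPM in PWK, and the 5 classical strains had means of 11.5 to 13.3 CPM. The lowest WSB library lay just above the top of the classical strains, library NOD_3 at 18.7 CPM, while the Cast and PWK values overlapped them. In WSB, Cox6a1 was higher by 1.03 ± 0.11 (2.05-fold; adjusted p = 1.35e-11). Of the summed CPM of Cox6a1 and Cox6a2, Cox6a1 made up 2.51% in NOD and 9.27% in WSB.

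Cox8a, the widely expressed form of the smallest subunit, had values of 28.7, 36.5 and 48.6 CPM in Cast and 20.6, 29.1 and 41.2 CPM in WSB. PWK had 17.6, 19.3 and 28.6 CPM, with the top value in 1 library, PWK_2, apart from the rest. Means in the classical strains were 15.0 to 17.9 CPM. All 7 Cast libraries lay above every classical library, whose highest value was 23.8 in NOD_3. Cox8a was higher in Cast by 0.97 ± 0.08 (1.95-fold; adjusted p = 7.87e-15) and in WSB by 0.63 ± 0.08.

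Because Cox6a1 and Cox8a were the complex IV genes with the widest ranges at a level above 5 CPM, their promoter windows are shown. Each holds 250 bases before and 50 after the RefSeq start, read 5′ to 3′ on the gene's strand from the RefSeq table of GRCm38.p6. Capitals mark matches to the palindrome of nuclear respiratory factor NRF1, which is GCGCA followed at once by its reverse complement, and to the ETS core CCGGAAG, which appears as its reverse complement.
Cox6a1, chr5:115348909-115349208, minus strand: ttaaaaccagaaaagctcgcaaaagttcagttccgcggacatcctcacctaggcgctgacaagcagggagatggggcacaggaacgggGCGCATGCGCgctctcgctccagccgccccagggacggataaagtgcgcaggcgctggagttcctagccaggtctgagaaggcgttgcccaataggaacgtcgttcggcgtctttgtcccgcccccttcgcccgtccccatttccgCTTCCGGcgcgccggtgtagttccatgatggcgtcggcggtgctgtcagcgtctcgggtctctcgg
Cox8a, chr19:7217567-7217866, minus strand: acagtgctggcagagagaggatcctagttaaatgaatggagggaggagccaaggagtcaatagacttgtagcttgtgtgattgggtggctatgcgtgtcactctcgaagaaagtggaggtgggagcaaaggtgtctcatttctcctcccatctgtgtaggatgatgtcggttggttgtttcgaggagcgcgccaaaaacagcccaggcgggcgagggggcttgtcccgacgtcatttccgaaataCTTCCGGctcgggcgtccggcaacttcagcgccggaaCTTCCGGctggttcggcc
The Cox6a1 window held the palindrome and 1 ETS core, and the Cox8a window held 2 ETS cores. Both strands were searched, and the motifs share no bases in these windows. Of 27025 genes in that table, 290 (1.07%) held the palindrome and 2683 (9.93%) held the ETS core in any of their windows. Of the 32 subunit genes matched in the table, 4 held the palindrome, namely Atp5g2, Atp5k, Cox6a1 and Uqcrc1, which is 12.5%. The ETS core was in 12 of the 32, or 37.5%. A match is only a run of letters and was not tested as a binding site.

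Brown adipocyte markers stood beside Cox6a1 and Cox8a across libraries. With strain means removed, the correlations with the log2 brown marker sum over 61 libraries were 0.73 for Cox6a1 and 0.64 for Cox8a. The next highest of the 42 genes was Cox6b2, at 0.17. Within WSB alone they were 0.89 for Cox6a1 and 0.85 for Cox8a, followed by Sdha at 0.73. The summed 6 brown markers ran from 23.0 to 188 CPM in Cast, 10.9 to 454 in WSB and 8.5 to 60.6 in PWK. Over the classical strains they ran from 4.60 to 24.8 CPM. Ucp1, the uncoupling protein that defines these cells, was at 0 in 6 of 8 B6, 2 of 7 NOD, 3 of 8 NZO and 3 of 7 PWK libraries. The 2 highest Cox6a1 values, 41.5 in WSB_9 and 40.6 in WSB_3, came with Ucp1 at 360.0 and 244 CPM. In WSB_4, Ucp1 was 0.382 CPM, and Cox6a1 and Cox8a were 20.5 and 24.5, both above the highest classical library. In Cast_3, with Ucp1 at 0.406 CPM but a brown marker sum above the 23.0 CPM of Cast_5, Cox6a1 was 21.2 and Cox8a 35.7. The summed hepatocyte markers of Cast_3, 8047 CPM, were the highest of all libraries. In Cast_5, whose brown marker sum of 23.0 CPM was the lowest in Cast, Cox6a1 was 12.1 and Cox8a 31.1 CPM. Summed white adipocyte markers were highest within their strains in NOD_3, PWK_2 and WSB_3, at 789, 741 and 1023 CPM. The medians of these strains were 258, 292 and 640 CPM. In Cast and NZO the highest were Cast_8 and NZO_1, which held the highest value of neither gene. Which cells the Cox6a1 and Cox8a RNA came from was not tested.

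With the summed markers of 4 cell types (hepatocyte, lymphocyte, keratinocyte and brown adipocyte) as covariates, the range of Cox6a1 fell to 0.24 (adjusted p = 0.173) and its difference in WSB to 0.13 (adjusted p = 0.491). White adipocyte markers were not among these covariates. In the same fit the range of Cox8a was 0.74 (adjusted p = 6.09e-06), against 1.31 without covariates. Its difference in Cast was 0.56 (adjusted p = 6.66e-07), against 0.97, and in WSB it was 0.05 (adjusted p = 0.809). Without the 16 libraries above 5 CPM of Ucp1, which left 2 Cast libraries and 1 WSB library, the Cast difference of Cox8a was 0.87 (adjusted p = 2.28e-07). The WSB difference of Cox6a1 was then 0.64 (adjusted p = 0.0865), with the lone WSB library assumed to vary like the other strains.

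**Figure D2:**
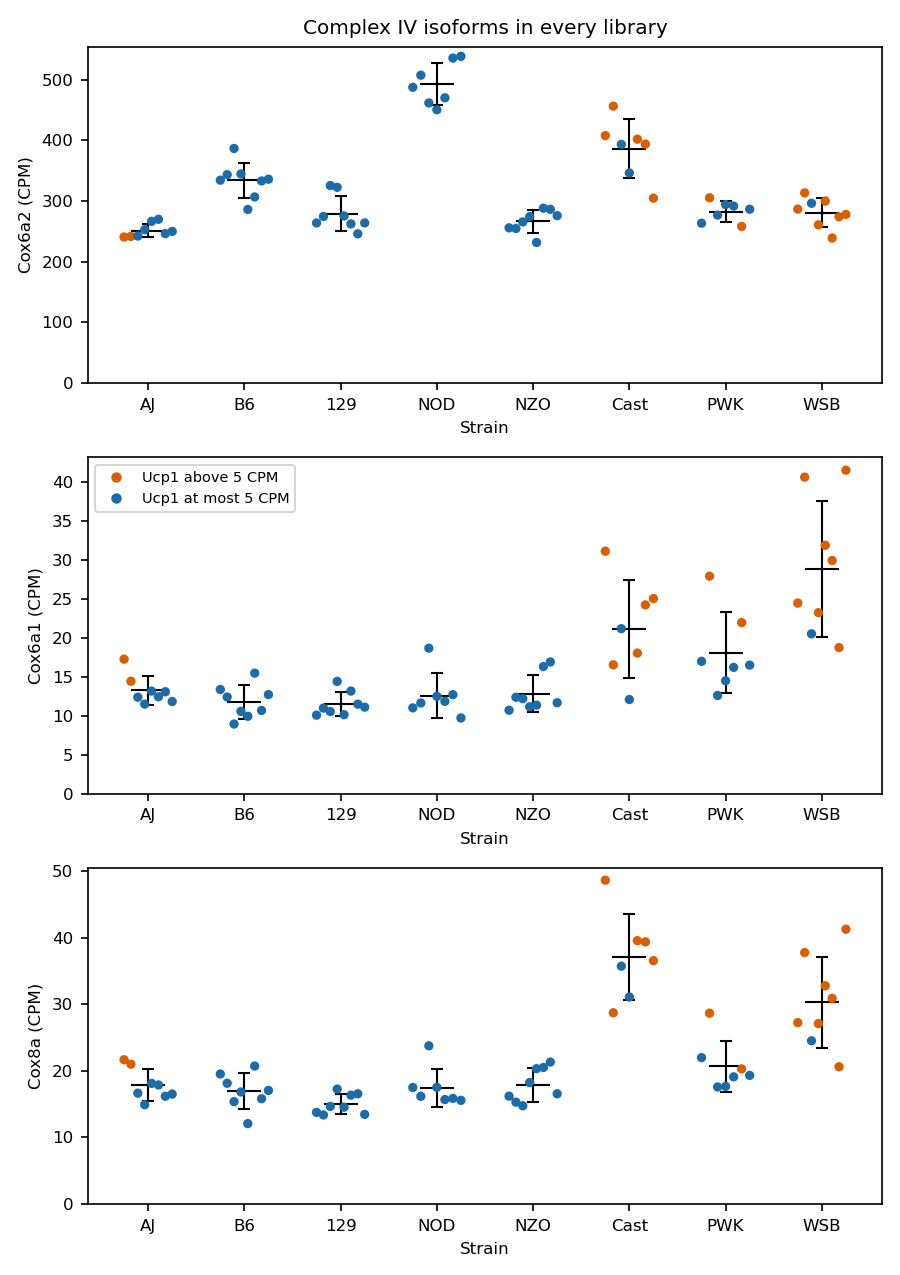
Cox6a2, Cox6a1 and Cox8a in CPM on the vertical axes against strain on the horizontal axis, with 1 point per library and a bar at the strain mean. Cox6a2 is highest in NOD, at a mean of 493 CPM, whereas Cox6a1 is highest in WSB and Cox8a in Cast.

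The F1 head of ATP synthase holds several copies each of the alpha and beta subunits, with gamma, delta and epsilon in the central stalk. Atp5a1 had lowest, median and highest library values of 1466, 1588 and 1809 CPM in B6 and 1963, 2217 and 2554 CPM in PWK. Atp5b had 1482, 1799 and 1935 CPM in B6 and 2032, 2351 and 2667 CPM in Cast. Both genes were lowest in B6, with ranges of 0.45 (adjusted p = 1.02e-07) and 0.43 (adjusted p = 6.99e-09), with no overlap between the 2 strains named, but the highest strain differed between them. Atp5e, the epsilon subunit, was 144 ± 22.3 in B6 (SD, n = 8) and 206 ± 12.8 CPM in NOD (SD, n = 7). Atp5c1, gamma, was lowest in WSB at 392 and highest in NOD at 487 CPM, and Atp5d, delta, had a range of 0.27.

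The peripheral stalk, which holds the head still against the rotor, is made of Atp5f1, Atp5h, Atp5j and Atp5o. Atp5h, the d subunit, was the most varied of the 4, with library values of 98.1, 164 and 169.7 CPM in B6 and 216, 226 and 248 CPM in WSB. Every WSB library lay above every B6 library, and the lowest B6 value came from B6_5. The range of its means was 0.56 (adjusted p = 1.54e-08). Atp5f1, Atp5j and Atp5o had ranges of 0.28, 0.28 and 0.39. The membrane subunits Atp5j2, Atp5k and Atp5l had ranges of 0.42, 0.42 and 0.36.

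In Atp5sl, PWK and WSB lay above the other 6 strains without overlap. Its libraries ran from 30.1 to 38.3 CPM in PWK and from 35.5 to 42.01 in WSB, while the highest library elsewhere was 26.9 CPM in AJ. The lowest strain was Cast, at 20.1 ± 4.13 CPM (SD, n = 7). Against the other strains Atp5sl was higher in WSB by 0.68 ± 0.05 (adjusted p = 7.63e-16) and in PWK by 0.48 ± 0.06 (adjusted p = 4.64e-10), and lower in Cast, NZO, B6 and NOD. The NOD call was lost with no filter on low counts and with the replicate block, and the B6 call with marker sums as covariates. Atp5s, a regulatory protein known as factor B, stayed between 6.10 in PWK and 8.06 CPM in Cast.

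The rotor ring of ATP synthase is built of subunit c, which 3 genes, Atp5g1, Atp5g2 and Atp5g3, encode as the same mature protein with different import sequences. Atp5g2 had the widest difference of the 42 genes. A gene copy bears on it: Gm10175, annotated on GRCm38 as a transcribed processed pseudogene at chr7:23946646-23947290, matched the Atp5g2 transcript at 100% over 645 bases and contained its whole coding sequence of 441 bases. The last 150 coding bases, stop codon included, are shown from the GENCODE M21 transcripts to compare the copy with the parent and with the other 2 genes. They are read 5′ to 3′ on the coding strand, capitals mark bases that differ from Atp5g2, and spans on the genome include introns where present.
Atp5g2, chr15:102663014-102665088, minus strand: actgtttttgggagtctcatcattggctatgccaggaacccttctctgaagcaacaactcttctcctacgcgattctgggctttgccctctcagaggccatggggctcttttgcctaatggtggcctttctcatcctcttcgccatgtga
Gm10175, chr7:23946792-23946941, minus strand: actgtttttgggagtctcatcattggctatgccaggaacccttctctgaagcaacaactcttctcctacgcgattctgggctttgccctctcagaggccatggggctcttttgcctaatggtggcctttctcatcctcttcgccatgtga
Atp5g1, chr11:96073104-96073557, minus strand: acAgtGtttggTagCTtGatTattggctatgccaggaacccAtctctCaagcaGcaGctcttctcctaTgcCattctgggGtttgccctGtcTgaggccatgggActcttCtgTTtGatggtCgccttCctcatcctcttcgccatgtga
Atp5g3, chr2:73908593-73909218, minus strand: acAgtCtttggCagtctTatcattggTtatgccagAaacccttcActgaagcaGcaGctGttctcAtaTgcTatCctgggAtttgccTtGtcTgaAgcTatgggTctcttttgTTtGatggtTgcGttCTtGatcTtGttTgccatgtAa
Gm10175 differed from Atp5g2 at 0 of the 150 bases, Atp5g1 at 23 and Atp5g3 at 33. Reads from this stretch of Atp5g2 and Gm10175 have the same sequence on the reference.

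Atp5g2 was 100.5 ± 4.82 CPM in AJ (SD, n = 8), 119 ± 5.33 in NOD, 116 ± 12.5 in Cast and 107 ± 9.43 in PWK (SD, n = 7 each). It was 6.96 ± 1.24 in B6, 6.82 ± 1.44 in 129, 7.37 ± 0.660 in NZO and 6.37 ± 2.64 in WSB (SD, n = 8 each). The 2 sets of strains were far apart, with the lowest library of the first set, PWK_7, at 87.4 CPM. Gm10175 showed the reverse: means of 0.430 in AJ, 0.655 in NOD, 1.32 in Cast and 1.82 in PWK, against 95.4 in B6, 109.7 in 129, 106 in NZO and 101 CPM in WSB.

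The sum of gene and copy was even across strains, from 101 CPM in AJ and 102 in B6 to 120 in NOD. Adding the copy before the fit took the range of Atp5g2 from 4.23 to 0.25 (adjusted p = 0.000651). The difference of AJ from the other strains changed sign, from 2.13 for Atp5g2 alone to -0.15 (adjusted p = 0.0082) for the sum. The wild-derived against classical difference went from 1.03 to 0.01 (adjusted p = 0.827). Atp5g1 and Atp5g3, the other 2 genes of the ring, were even: Atp5g1 ranged from 199 ± 26.0 in NZO to 238 ± 24.9 CPM in WSB (SD, n = 8 each), and Atp5g3 from 303 ± 28.5 in B6 (SD, n = 8) to 396 ± 74.3 CPM in Cast (SD, n = 7). Atp5g2 alone is counted as called in the numbers below unless the copy is named.

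Cox5b, which binds zinc at the matrix side of complex IV, also had a close copy in the table. Gm11273, annotated as protein-coding on chromosome 13, matched the 390 coding bases of Cox5b at 99.23%. A stretch of 150 bases that holds all the differences is shown, in GENCODE M21 sequence on the coding strand, with the differing bases in capitals.
Cox5b, chr1:36692211-36692526, plus strand: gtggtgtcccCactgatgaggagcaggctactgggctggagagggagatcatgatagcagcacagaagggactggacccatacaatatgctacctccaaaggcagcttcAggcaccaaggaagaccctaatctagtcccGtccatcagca
Gm11273, chr13:21501166-21501315, minus strand: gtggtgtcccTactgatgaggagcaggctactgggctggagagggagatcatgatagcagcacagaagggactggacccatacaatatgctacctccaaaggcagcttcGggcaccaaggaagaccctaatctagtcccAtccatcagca
Counted from 1 at the start codon of Cox5b, with the Cox5b base first, the differences are C114T, A213G and G243A. A read from within the coding bases that covers none of these positions fits both genes.

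Library values of Cox5b were 170.3, 229 and 256 CPM in Cast and 201, 217 and 249.9 CPM in PWK. Means elsewhere were 129 in B6 to 159.9 CPM in NOD, and no library of these 6 strains exceeded 170.0 CPM. PWK thus lay clearly above all of them, and the lowest Cast library, Cast_8, just above. Gm11273 had means of 0.721 in Cast and 0.550 in PWK, against 33.5 CPM in NZO to 52.5 in NOD. Cox5b alone was higher by 0.53 ± 0.06 in Cast (adjusted p = 5.01e-11) and by 0.53 ± 0.06 in PWK. With the copy added, both differences were 0.22 (adjusted p = 0.000754 in Cast and 0.00156 in PWK), and the range between strains went from 0.77 to 0.41. Copies of Atp5f1, Atp5h and Atp5l in the table left their ranges at 0.28, 0.56 and 0.37. Whether reads of the wild-derived strains map to the GRCm38 reference as well as those of B6 was not tested.

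**Figure D3:**
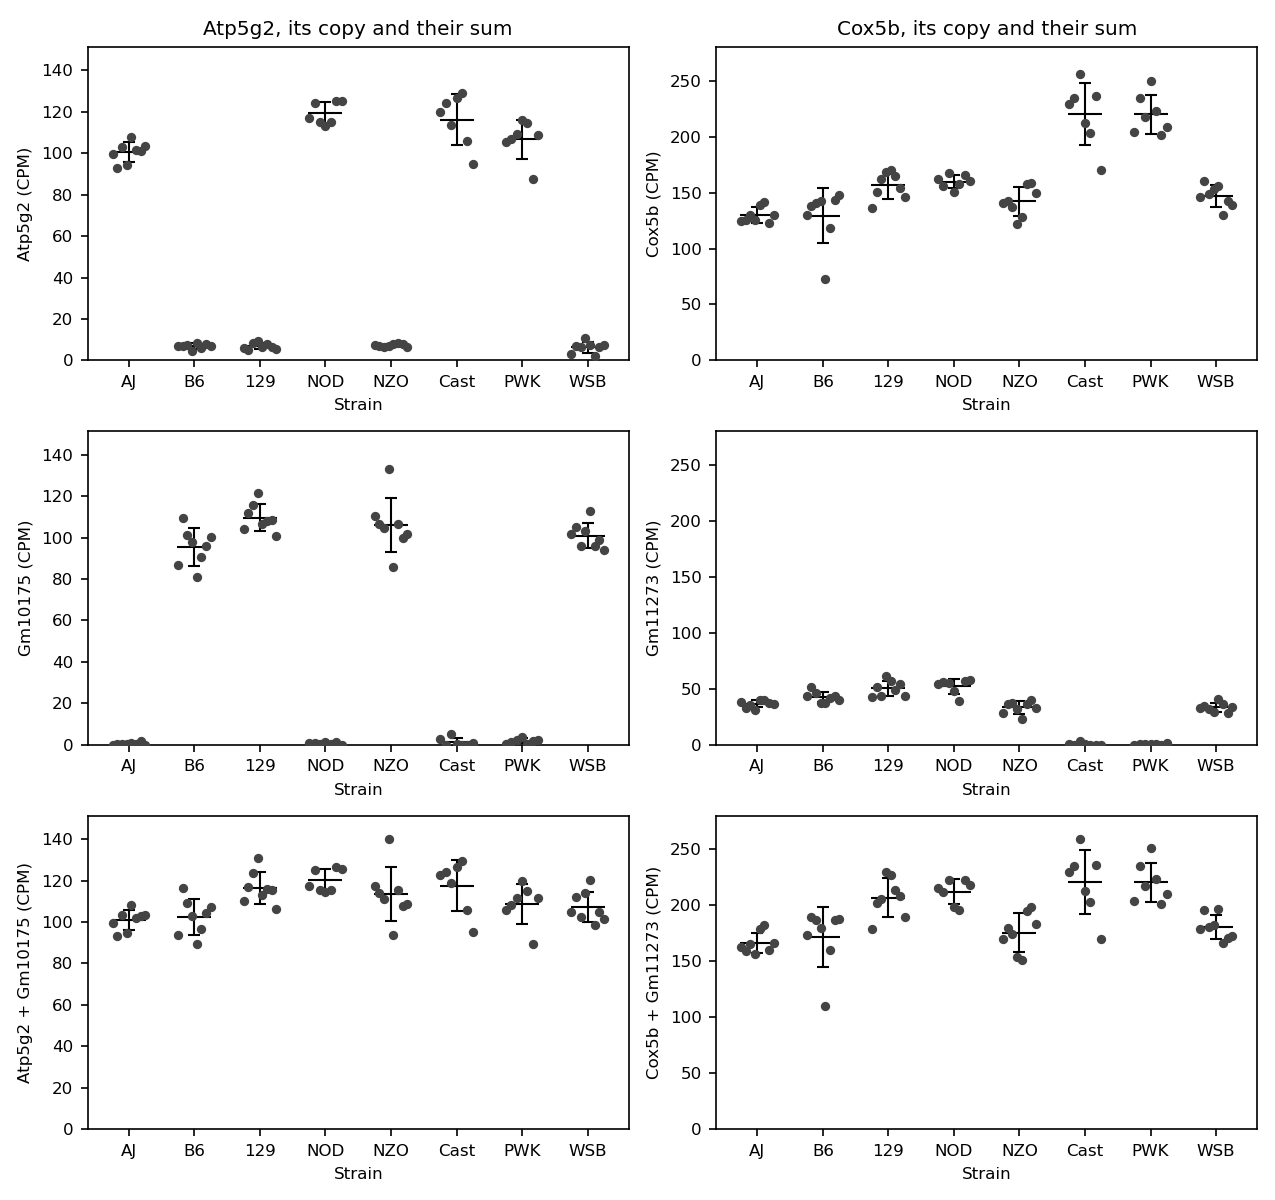
Atp5g2 with its copy Gm10175 on the left and Cox5b with its copy Gm11273 on the right, in CPM on the vertical axes against strain on the horizontal axes, with 1 point per library. The rows show the gene, the copy and their sum, and the sum of Atp5g2 and Gm10175 has strain means of 101 to 120 CPM.

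Each strain was then compared with the equally weighted mean of the other 7, so the comparisons share libraries. B6 was the strain in which most subunits moved the same way: 31 of 42 were lower, against 11.2% of all tested genes. By complex these were 2 of 4 in complex II, 9 of 9 in complex III, 7 of 12 in complex IV and 13 of 17 in complex V. Without Atp5g2, the 30 lower genes differed by -0.14 to -0.44, with a median of -0.23. The median of all 42 was -0.21 and that of all genes 0.01. The largest of these differences were in Cox6a1, at -0.44 (adjusted p = 0.00532), and Atp5h, at -0.35 ± 0.06 (adjusted p = 4.82e-06). With marker sums as covariates Cox6a1 was -0.11 (adjusted p = 0.433). Cox5b, Cox8a and Uqcrb followed Atp5h at -0.35, -0.32 and -0.32, and Cox8a too was -0.11 with marker sums (adjusted p = 0.368).

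By edgeR's quasi-likelihood test, 0 of the 42 were higher in B6, against 15% of all genes. Unadjusted p-values under 0.05 on that side numbered 2, and DESeq2 and limma also called 0. The 2 were Sdha, at 0.10 (adjusted p = 0.0706), and Cox6a2, at 0.10 (adjusted p = 0.104). They were not chosen by the rule for named genes but after their values were seen. Library B6_5, rich in Rn18s-rs5, held the lowest B6 value of 36 of the 42 genes. Its median deviation over the 42 from the mean of strain means was -0.63, against -0.23 to -0.08 in the other 7 B6 libraries. Without it, 27 of the 31 remained lower, and the 4 lost were Sdhd, Cox7c, Atp5c1 and Atp5d, while Sdha and Cox6a2 were then called higher. With marker sums as covariates, 21 of the 31 remained lower, and without the 9 libraries high in lymphocyte markers, 30 did.

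In AJ, 19 of the 42 were lower, against 14.9% of all genes, and 2 higher, against 16.8%. By sign alone, 37 of the 42 differences were below 0 in AJ, as many as in B6. Of the genes called lower 7 were in complex IV, 5 in complex III, 5 in complex V and 2 in complex II. The largest were Cox6a2 at -0.37, Cox5b at -0.34 and Cox4i1 at -0.24. The 2 higher genes were Atp5g2, whose sign turned with its copy added, and Atp5f1, at 0.12 (adjusted p = 0.0445). The Atp5f1 call was lost with no filter, by limma, with marker sums as covariates, at 0.08 (adjusted p = 0.208), and without the libraries high in Ucp1 or in lymphocyte markers. The 129 libraries had 7 lower genes, against 11.4% of all genes, led, beside Atp5g2, by Cox8a at -0.53 and Cox6a1 at -0.49. Cox6a1 was -0.10 (adjusted p = 0.428) with marker sums as covariates. In 129, 0 were higher by edgeR, against 14.2% of all genes, with 1 at an unadjusted p under 0.05 and 0 by DESeq2 and limma.

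NZO had 9 lower, against 12.7% of all genes, and 1 higher, against 14.6%. The lower ones included Cox6a2 at -0.27 and Cox8a at -0.23, and the higher one was Sdhc at 0.12 (adjusted p = 0.0494), a call lost without B6_5 or without Cast_8. Cox8a was -0.01 (adjusted p = 0.92) with marker sums as covariates, and its call was also lost with no filter and without the libraries high in Ucp1, lymphocyte or hepatocyte markers. All 8 slow fibre markers were higher in NZO, with sums of 2801 to 10598 CPM in its libraries and 964 to 5176 elsewhere. The median subunit difference in NZO was -0.06. In NOD, 12 were higher, against 11.9% of all genes, and 2 lower, against 9.79%. Beside Atp5g2 and Cox6a2, Atp5e led at 0.32 ± 0.07 (adjusted p = 0.000434), and the lower ones were Cox8a at -0.28 and Atp5sl at -0.17. With marker sums as covariates, 5 were higher, and Cox8a was -0.05 (adjusted p = 0.746).

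Cast had the most genes called higher, 24 of 42, where 33.8% of all genes were also higher, and 4 lower, where the share was 27.9%. Complex IV gave 8 of the 24, complex V 8, complex III 6 and complex II 2. Beside Atp5g2, the largest were Cox8a at 0.97 and Cox5b at 0.53, and Atp5b was higher by 0.29 ± 0.04 (adjusted p = 6.82e-08). The 4 lower genes were Sdhc, Atp5sl and the scarce Cox4i2 and Cox6b2. The median difference was 0.17 over the 42 and 0.04 over all genes. Library Cast_8 held the lowest Cast value of 32 genes, with a median deviation of -0.18 beside a median of 0.24 over the 7 Cast libraries. Without it, all 24 remained and 28 were higher, while the lower calls of Sdhc and Cox4i2 were lost. Without the 16 libraries above 5 CPM of Ucp1, which left 2 Cast libraries, 15 were higher. Several of the lost differences were as large there, such as Uqcr10 at 0.23 against 0.18 and Sdhb at 0.23 against 0.21, but Cox6a1 was 0.27 against 0.52. Without the 3 libraries high in hepatocyte markers, of which 2 were Cast, 15 were higher as well, and lost differences were smaller, such as Uqcrb at 0.06 against 0.13 and Cox7b at 0.07 against 0.16.

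In PWK, 10 were higher, against 20.6% of all genes, and 3 lower, against 20.3%. Beside Atp5g2 and the scarce Cox4i2, at 0.91, the leading ones were Cox5b and Atp5sl, and Atp5a1 was higher by 0.29 ± 0.05 (adjusted p = 6.88e-06). The lower genes were Uqcrc1 at -0.16, Cox6a2 at -0.18 and Atp5s at -0.22. In WSB, 11 were higher, against 21.4% of all genes, and 4 lower, against 17%. Cox6a1, Atp5sl and Cox8a led, and Sdhb at -0.23 (adjusted p = 0.000988) and Atp5c1 at -0.18 (adjusted p = 0.00142) were among the lower. Sdhb was -0.16 (adjusted p = 0.0923) and Atp5c1 -0.13 (adjusted p = 0.109) without the libraries high in lymphocyte markers, and neither passed the threshold with marker sums as covariates (adjusted p = 0.21 and 0.324). The part of brown adipocyte and lymphocyte RNA in the WSB calls was not tested beyond these fits.

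The mean of the 3 wild-derived strains was also set against that of the 5 classical strains. The p-values of this comparison rest on libraries, not on strains, of which there are 3 and 5. Of the 42 genes, 27 were higher in the wild-derived strains, against 32.3% of all genes, and 1 lower, against 26.5%. The higher ones were 1 of complex II, 7 of complex III, 9 of complex IV and 10 of complex V. The median difference was 0.15 over the 42 genes and 0.03 over all genes. With copies added 26 were higher, and without the libraries above 5 CPM of Ucp1 19 were. The lost differences included Uqcrh, at 0.18 in that smaller set against 0.18, and Cox7b, at 0.16 against 0.15.

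In complex II only Sdhd passed the threshold, at 0.10 ± 0.03 (adjusted p = 0.00806). In complex III the largest differences were Uqcrfs1, at 0.20 ± 0.03 (adjusted p = 3.58e-06), and Uqcrh, at 0.18 ± 0.04 (adjusted p = 6.7e-05). In complex IV they were Cox6a1, at 0.85 ± 0.08, and Cox8a, at 0.75 ± 0.06. With marker sums as covariates Cox6a1 fell to 0.06 (adjusted p = 0.669) and Cox8a to 0.25 (adjusted p = 0.0138). The 1 lower gene was the scarce Cox6b2, at -1.14 ± 0.29 (adjusted p = 0.000735). In complex V, beside Atp5g2, Atp5sl led at 0.37 ± 0.04, although its lowest strain mean was that of Cast. Atp5h followed at 0.31 ± 0.04.

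**Figure D4:**
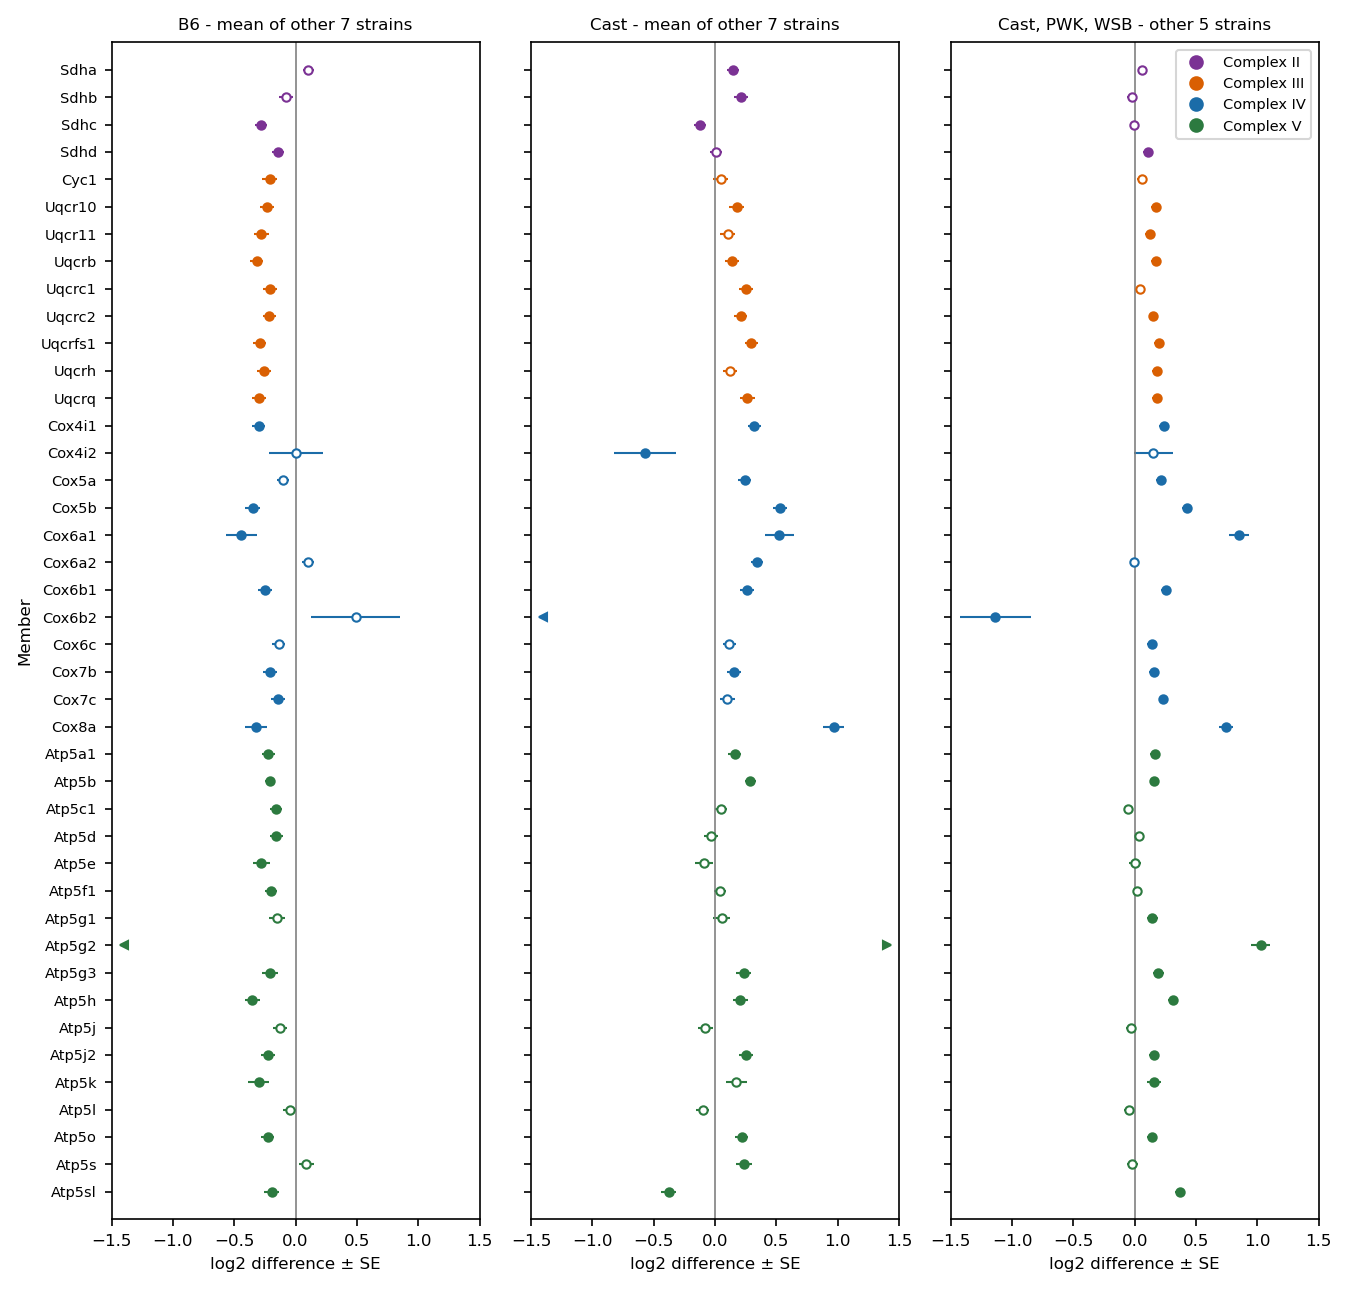
Log2 difference with its SE on the horizontal axis for each subunit gene on the vertical axis, in B6 against the other 7 strains, in Cast against the other 7, and in wild-derived against classical strains. Filled points passed the threshold, open points did not, and arrowheads stand for values beyond the axis. Of the 42 genes, 31 are called lower in B6, 24 higher in Cast and 27 higher in the wild-derived strains.

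Within a strain, libraries differed in the level of many subunits at once. For each library the median over the 42 genes of the log2 deviation from the mean of strain means was taken. In B6 this median ran from -0.63 to -0.08, in AJ from -0.19 to -0.03, in 129 from -0.16 to 0.14 and in NZO from -0.28 to 0.11. NOD ran from -0.02 to 0.18, WSB from -0.03 to 0.19, PWK from -0.08 to 0.22 and Cast from -0.18 to 0.34. The strains overlapped in this measure, although every B6 and AJ library was below 0. The median over libraries was -0.12 in AJ and -0.11 in B6. Single libraries again took most of the extremes: NOD_4 held the lowest NOD value of 30 genes, PWK_1 the lowest PWK value of 27 and PWK_4 the highest of 31. In 129, library 129_4 was highest for 28. The 42 genes together made up 0.359% of the counts of B6_5, or 0.668% of its counts other than those of Rn18s-rs5, where the other B6 libraries had 1.18 to 1.21%.

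**Figure D5:**
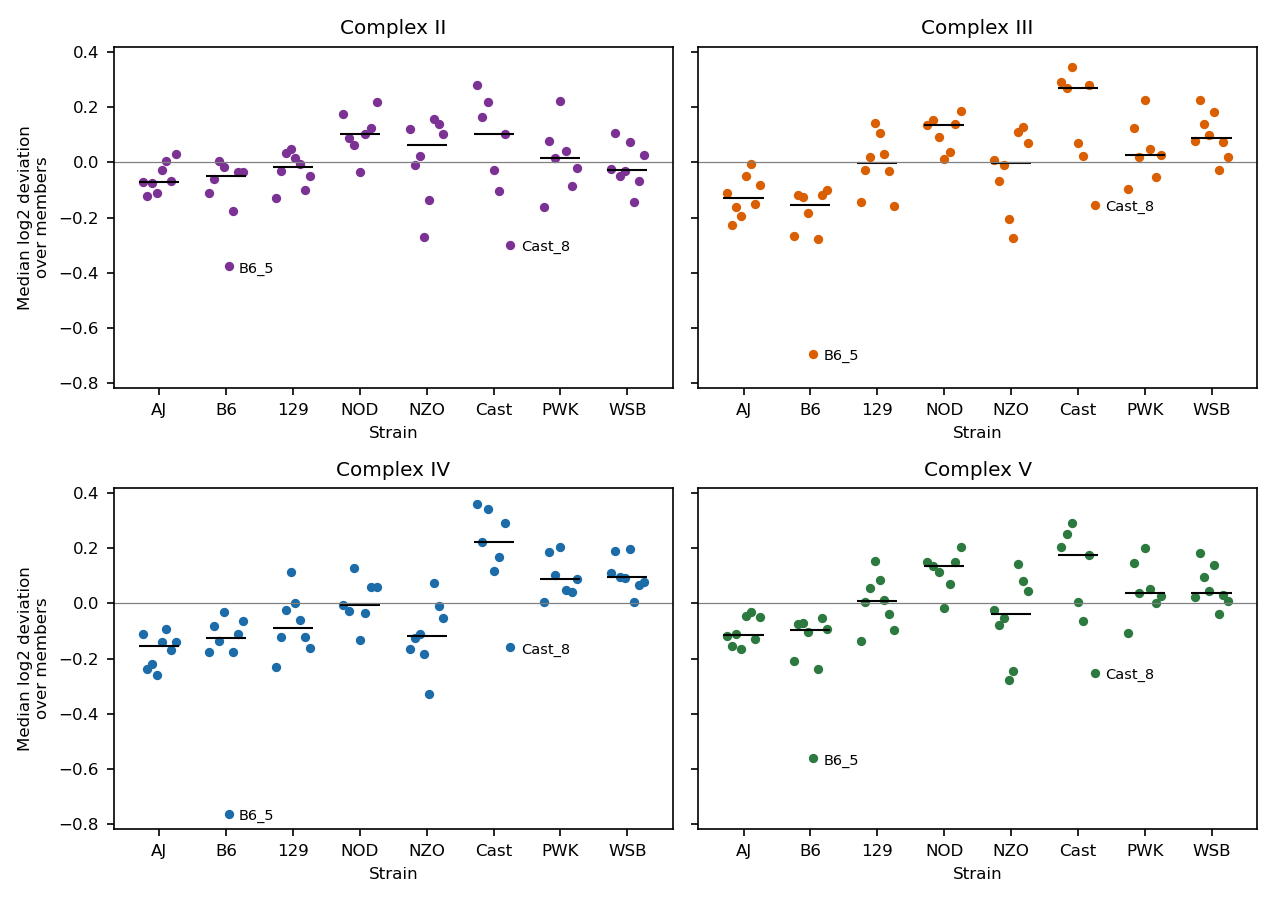
Median log2 deviation over the genes of each complex on the vertical axes, 1 panel per complex, against strain on the horizontal axes, with 1 point per library. Library B6_5 is the lowest B6 point in all 4 panels, and its median over all 42 genes is -0.63.

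Assembly factors, electron carriers and the subunits made in the mitochondrion were looked at beside the nuclear subunits, from lists drawn up by function. Of 48 such genes tested, 45 differed among strains, against 85.5% of all genes. They were 4 of 4 complex II assembly factors, 4 of 6 for complex III, 21 of 22 for complex IV and 6 of 6 for complex V, with 4 of 4 carriers and accessory proteins and 6 of 6 mitochondrial genes. Several of these genes differed by more than the subunits did. Cycs, cytochrome c of somatic cells, was 126 ± 12.3 CPM in B6 (SD, n = 8) and 383 ± 73.9 in Cast (SD, n = 7), a range of 1.61. B6 and Cast were also the lowest strain for 26 and the highest for 19 of the 42 subunit genes. In the wild-derived strains Cycs was higher by 0.67 (adjusted p = 7.21e-21).

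Sdhaf1, an assembly factor of the iron-sulphur subunit of complex II, ranged from 6.67 CPM in Cast to 12.3 in PWK, and Sdhaf2, which acts on the flavoprotein, by 0.35. Lyrm7, which serves the insertion of the Rieske protein Uqcrfs1, ran from 2.64 in AJ to 9.25 CPM in NZO, whereas Uqcrfs1 was lowest in B6 and highest in Cast. Uqcc1, needed for cytochrome b, was 40.0 in NOD and 81.8 CPM in PWK. For complex IV, Cox11, which delivers copper, was 4.24 in Cast and 14.9 CPM in WSB, and Cox18 was 2.93 in PWK and 8.16 in NZO. In Cast, 4 of the 22 complex IV assembly factors tested were higher and 10 lower, against 33.8% and 27.9% of all genes.

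For ATP synthase, Atpaf2, an F1 assembly factor, differed by 0.59 between AJ and WSB. Atpif1, the inhibitor of its hydrolysis of ATP, differed by 0.66 between 129 and Cast. In WSB, 5 of 6 genes on that list were higher, against 21.4% of all genes. Higd2a, linked to complex IV and supercomplexes, was 22.0 in Cast and 49.8 CPM in 129. Among the mitochondrial genes, mt-Cytb had a range of 0.57. The listed counts of mt-Co2 ran from 52.2 CPM in PWK to 4321 in NZO, a range of 6.37. The ranges of mt-Co1 and mt-Co3 were 0.36 and 0.34. Copies of the genes on these lists, mt-Co2 and Cycs among them, were not looked for. How their reads map to the reference in each strain was not tested. PolyA selection was used, so the levels of mitochondrial transcripts need not follow their abundance.

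Exons of several subunit genes overlap those of genes on the opposite strand, among them Atp5a1 and Haus1, Atp5j and Gabpa, Cox4i1 and Emc8, Cox6a2 and Itgad, and Uqcrc2 and Pdzd9. Whether counting used strand is not given in the sources used here, so the counts of these pairs are uncertain to that extent. For Cox6a2 and Itgad the shared stretch is 70 bases, or 10.3% of the Cox6a2 exons.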

How the data were processed

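RNA was measured in 61 skeletal muscle libraries. Per the labels' protocols, frozen tissue was pulverised, ERCC spike-ins were added, and polyadenylated RNA was made into KAPA libraries. The genome build GRCm38 and DESeq2 come from the submitters' processing notes. Not given in the sources used here are the aligner, counter, annotation release and strand use. The authors deposited expected counts per gene, not scaled, of which 80.4% were whole; they were rounded, although whole counts had been assumed. Log2 values, variance-stabilised by the authors, were used in 1 alternative.

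Strains were taken from the titles. The 42 genes and the lists were chosen with earlier results of these data known. Genes were filtered with filterByExpr, scaled by TMM and fitted with edgeR 4.0.16 (R 4.3.3) in 1 quasi-likelihood fit of all libraries with 53 residual degrees of freedom, with Benjamini-Hochberg adjustment over 16682 genes and a threshold of 0.05. Log2 levels used a prior count of 2. DESeq2 1.42.0 and limma 3.58.1 served as alternatives. Copies with 95% identity or more over 200 bases or more, covering at least 50% of the shorter transcript, were found with BLAST 2.17.0 among GENCODE M21 transcripts. Promoters came from a RefSeq table.

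In each complex the 3 widest and the narrowest ranges above a mean of 5 CPM were named, with the extreme called genes of each comparison and the isoform groups. The fit was tested on simulated data for the B6 comparison over 16467 genes. It recovered 24% of genes changed by 0.25 log2, 56% at 0.5, 84% at 1 and 94% at 2, and 3 of 132 calls were unchanged genes. The changed genes were drawn at random from all genes in that test, and most genes were left unchanged. Small differences can thus be missed, but these shares need not hold for the subunit genes. No 2 libraries had equal counts for more than 5.97% of genes.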

Additional observations from a re-analysis of the deposited data

Results flagged for a closer look

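Over 23 genes and the median of all 42, 192 strain groups of values were tested. Of these, 18 held a lowest or highest library set far apart from the rest of its strain. Chance gives about 1 in 20 for a single group. The groups share libraries and many of the genes vary together, so the count of 18 cannot be judged by that rate. Library B6_5 accounted for 9 of the 18, all as the lowest value. In B6_5, Sdhd was 116 CPM against 137 to 152 in the other B6 libraries, Uqcrq 85.0 against 119.7 to 139, and Uqcrh 88.7 against 147 to 165. For complex IV, Cox4i1 was 233 against 322 to 382, Cox6c 143 against 218 to 257, Cox6b1 105 against 160.3 to 177, and Cox7b 115 against 167 to 194 CPM. Atp5h was 98.1 against 156 to 169.7 CPM, and the median deviation over the 42 genes was -0.63 against -0.23 to -0.08.

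Sdha in NZO_8 was 449.6 CPM against 574 to 638 in the other NZO libraries, and Cox6c in NZO_1 was 201 against 249 to 289. Sdhd in PWK_4 was 189.5 against 141 to 161, and Atp5g2 in PWK_7 was 87.4 against 105 to 116. Cyc1 in 129_1 was 198 against 227 to 247, and Cox6b1 in 129_4 was 219 against 157 to 186 CPM. Both Cox6a1, at 18.7 CPM against 9.71 to 12.7, and Cox8a, at 23.8 against 15.6 to 17.5, were apart in NOD_3, as was Cox8a in PWK_2, at 28.6 against 17.6 to 22.0 CPM.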

How the results depend on the processing

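Of 14 alternatives, 9 were planned and 5, each leaving out libraries, were chosen after seeing the data. For 108 values of named genes, 1390 of 1509 recomputed values kept their direction and side of the threshold. The count of genes differing among strains was 39 to 42 throughout. With at least 10 counts in every library, 0 genes were lower in the wild-derived strains, 1 was higher in B6 and 2 lower in Cast. With no filter, 1 was higher in AJ and 1 lower in NOD. By limma 1 was higher in AJ, and by the DESeq2 test 2 were higher in NZO. With marker sums as covariates, NOD had 5 genes called higher, B6 had 2, AJ and 129 had 1 each and NZO had 0, and those lower were 1 in NOD, 2 in Cast and 1 in WSB. With copies added, 1 was higher in AJ, and Atp5g2 changed sign to -0.152 in AJ, 0.0849 in 129, 0.0415 in NZO and -0.0293 in PWK. That change follows from the added counts.

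Without B6_5, 2 were lower in the wild-derived strains, 2 higher in B6 and 0 higher in NZO. Without Cast_8, 0 were higher in NZO and 2 lower in Cast. Without libraries above 5 CPM of Ucp1, the counts higher were 1 in AJ, 0 in NZO, 15 in Cast and 1 in WSB, and those lower were 12 in AJ, 1 in NOD, 1 in Cast, 1 in PWK and 1 in WSB, with only 1 WSB and 2 Cast libraries left, so the counts of these strains say nothing about stability. Without those high in lymphocyte markers, 1 was higher in AJ, 1 in B6 and 0 in NZO, and 1 lower in WSB. Without those high in hepatocyte markers, 2 were lower in the wild-derived strains, 1 higher in B6, 2 in NZO and 15 in Cast. Beyond the added copies and the libraries left out, the cause was not tested.

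With the replicate number as a block, 42 genes differed among strains, 27 were higher and 1 lower in the wild-derived strains, and 1 was lower in NOD where the fit without the block gave 2. The numbers gave no clear pairing of the libraries: 72 of 186 pairs of equal number in different strains had a correlation over 0.1, with a median of 0.011. Among pairs of unequal number in different strains, 508 of 1441 did, with a median of 0.000335. In the simulated data, with changed genes drawn from all genes, 24% of differences of 0.25 log2 were recovered. That share need not hold for the subunit genes.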
